A study of Mus musculus with 38 samples.

Results

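Imprinted genes in the postnatal mouse testis are described here, from a list of 40 genes known to be expressed from 1 parental copy. A probe set, the group of short probes that reads 1 transcript on the array, was taken as a member when the array annotation paired it with 1 of these genes and no other. This gave 95 probe sets for 35 genes, out of 34613 probe sets for 18038 genes in the whole series. *Zrsr1*, *Dio3*, *Rtl1* and *Peg13* had no probe set, and *H19* had only a probe set shared with *Mir675*, which was not used. Each gene was read by its probe set of highest mean signal over all arrays, and the other probe sets are given where they differ.

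Whole testes of single males were measured on 38 Affymetrix arrays at 5 and 7 days post partum (dpp), to ask how an X chromosome of another subspecies alters expression before meiosis. B6 is the C57BL/6J strain and MSM is an inbred strain of another mouse subspecies. B6-ChrXMSM carries the MSM X chromosome on a B6 background, B6-ChrXTMSM carries its distal part, and XS39-tel is a congenic strain for part of the X chromosome. F1 males had a B6-ChrXTMSM mother and a B6-Chr1MSM father, so their paternal chromosome 1 was MSM-derived and their X chromosome was that of B6-ChrXTMSM. All groups were of 3 males except F1 at 7 dpp, with 8 males, and XS39-tel was measured at 5 dpp only. B6, the X chromosome strains and F1 are called the B6-background strains below, and apart from the replaced X chromosome and 1 copy of chromosome 1 they share their autosomes, where all 40 listed genes lie. Levels are log2 signals, on which a difference of 1 is a factor of 2, and whole organs were measured, so fewer cells of a type and less RNA per cell cannot be told apart.

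Genomic imprinting marks a gene or its control region in the germ line of 1 parent, so that offspring use the copy of 1 parent only. The mark is DNA methylation laid down in sperm or eggs, kept in the embryo by the zinc finger protein ZFP57 and its partners, and erased and written again in the germ cells of the next generation. Many imprinted genes act on growth before birth and in the first days after it, and several of them are known to be switched down together in many organs as growth slows after birth. In the testis, somatic cells carry the inherited marks while male germ cells carry the paternal pattern.

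The promoters of 5 genes on which the results below turn are printed first. *Mest*, *Igf2* and *Dlk1* had the largest differences between the ages, and *Nnat* and *Zdbf2* the largest between MSM and the B6-background strains at 5 dpp in each direction. Each is 300 bases long, from 250 before to 50 after a transcription start of RefSeq on GRCm38.p6, 5′ to 3′ on the strand of the gene. Capitals mark the motif TGCCGC of ZFP57, or GCGGCA where it lies on the other strand, with overlapping matches counted each. Where a gene had several windows, the one with most matches is shown.
Mest chr6:30737800-30738099 (+): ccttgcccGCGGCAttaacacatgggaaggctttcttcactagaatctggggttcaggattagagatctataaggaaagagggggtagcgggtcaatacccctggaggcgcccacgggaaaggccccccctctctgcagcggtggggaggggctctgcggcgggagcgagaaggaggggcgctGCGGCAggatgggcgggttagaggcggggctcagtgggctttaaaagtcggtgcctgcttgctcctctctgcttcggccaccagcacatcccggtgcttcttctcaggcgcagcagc
Igf2 chr7:142661222-142661521 (-): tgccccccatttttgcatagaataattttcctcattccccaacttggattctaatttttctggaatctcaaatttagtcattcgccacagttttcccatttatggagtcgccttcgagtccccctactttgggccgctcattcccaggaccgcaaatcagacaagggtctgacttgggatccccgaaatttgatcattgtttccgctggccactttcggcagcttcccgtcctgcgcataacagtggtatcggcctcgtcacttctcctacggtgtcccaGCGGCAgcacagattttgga
Dlk1 chr12:109452573-109452872 (+): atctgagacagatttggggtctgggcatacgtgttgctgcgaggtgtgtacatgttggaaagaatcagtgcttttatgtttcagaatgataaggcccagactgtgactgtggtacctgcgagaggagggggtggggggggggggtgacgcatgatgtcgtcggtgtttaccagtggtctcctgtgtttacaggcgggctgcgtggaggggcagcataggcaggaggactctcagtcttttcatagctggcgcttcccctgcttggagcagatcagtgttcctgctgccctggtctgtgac
Nnat chr2:157559828-157560127 (+): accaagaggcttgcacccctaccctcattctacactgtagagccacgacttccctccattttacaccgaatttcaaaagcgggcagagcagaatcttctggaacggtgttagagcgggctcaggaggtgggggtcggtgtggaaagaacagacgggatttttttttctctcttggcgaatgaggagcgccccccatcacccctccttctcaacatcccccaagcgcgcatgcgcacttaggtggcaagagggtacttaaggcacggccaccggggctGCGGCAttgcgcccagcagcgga
Zdbf2 chr1:63200108-63200407 (+): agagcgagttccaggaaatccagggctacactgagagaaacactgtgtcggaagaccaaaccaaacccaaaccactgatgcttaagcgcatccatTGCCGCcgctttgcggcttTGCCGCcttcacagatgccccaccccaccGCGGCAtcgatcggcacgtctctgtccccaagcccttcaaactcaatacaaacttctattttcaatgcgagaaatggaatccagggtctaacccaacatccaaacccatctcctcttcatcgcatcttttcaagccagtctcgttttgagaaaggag
The *Mest* window held 2 matches and 17 CpG dinucleotides, the *Igf2* window 1 and 14, the *Nnat* window 1 and 17, and the *Zdbf2* window 3 and 15. *Dlk1* had no match and 9 CpG dinucleotides in its window, which says only that these letters are not in it. RefSeq windows were given for 32 of the 40 listed genes, and 34.4% of these genes had a match in at least 1 window, against 13.1% of all 27025 genes with a window. By window, 23.5% of the 51 member windows and 11.6% of all 32851 windows held a match, and the median CpG count was 13 against 7. Methylation and ZFP57 binding were not measured on these arrays.

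Of the 40 genes, 26 passed the expression filter, a group mean above a signal of 10 (log2 of 3.32) in at least 1 group, and 21 of these passed it in every group. *Magel2*, *Mkrn3*, *Nnat*, *Phlda2* and *Ascl2* passed in some groups only, so a difference in them rests partly on how they were kept. The 9 genes below the filter were *Usp29*, *Zim1*, *Kcnq1*, *Slc22a18*, *Ddc*, *Snrpn*, *Peg10*, *Asb4* and *Nap1l5*. *Peg10* had the lowest of their highest group means, 0.72, and *Slc22a18* the highest, 3.09. The 6 other probe sets of *Snrpn* are shared with *Snurf* and were not used. Strong signals came from the transcription factor gene *Plagl1*, up to a group mean of 10.99, from *Gnas*, which encodes a G protein subunit, up to 10.48, and from the non-coding RNA gene *Meg3*, up to 10.19. A probe set's level is not compared with that of another gene, since probes differ in how they bind.

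A difference was called when the Benjamini-Hochberg adjusted p of limma was under 0.05 and the fold change was at least 1.5 (0.585 on the log2 scale). Over the 5 strains measured at both ages, 6 member genes fell from 5 to 7 dpp and 1 rose, of 26 tested. Among all 18495 probe sets tested, 1.56% were called lower and 1.76% higher. The 6 were the growth factor gene *Igf2*, the transmembrane regulator gene *Dlk1*, *Mest*, *Slc38a4*, *Cdkn1c* and *Grb10*, and the gene that rose was *Ascl2*. The median difference over the 26 genes was -0.263, against 0.0227 over all probe sets, with 19 genes below 0 and 7 above. Without the fold threshold, 17 genes were lower and 5 higher at an adjusted p under 0.05. Of the 21 genes kept in every group, 6 were called lower and none higher, with a median of -0.329.

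*Igf2* encodes the main growth factor of the fetus and lies at chr7:142650768-142666816. Its signal in B6 testes was 8.36, 8.39 and 8.25 at 5 dpp and 7.36, 7.61 and 7.37 at 7 dpp. Over 5 strains, the 15 arrays of 5 dpp ran from 7.98 to 8.96 around a median of 8.27, and the 20 arrays of 7 dpp from 7.18 to 7.84 around 7.62. All arrays of 7 dpp lay below all arrays of 5 dpp, in every strain. Over strains it fell by 0.80 on the log2 scale (standard error 0.05, limma, adjusted p = 2.38e-13).

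*Dlk1*, at chr12:109452485-109463336, encodes a membrane protein related to Notch ligands that holds back the maturation of fat and other cells. It read 7.82, 8.0 and 7.81 in B6 testes at 5 dpp and 7.05, 7.20 and 7.08 at 7 dpp. Over strains the 5 dpp arrays spanned 7.64 to 8.22 and the 7 dpp arrays 6.64 to 7.46, with no overlap. Its log2 fold change was -0.80 (standard error 0.05, limma, adjusted p = 3.58e-14), and its other probe set was called lower too, at -0.62.

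*Mest* encodes a hydrolase-like protein of mesoderm and lies at chr6:30733506-30748466. It had the largest fall, a log2 fold change of -1.0 (standard error 0.06, limma, adjusted p = 4.39e-14). B6 arrays read 7.61, 7.51 and 7.16 at 5 dpp and 6.05, 5.92 and 5.89 at 7 dpp, and the arrays of each strain were separate between the ages. Over strains the 2 ages met, from 6.81 to 8.58 at 5 dpp and from 5.89 to 6.95 at 7 dpp, since MSM arrays of 7 dpp read above the lowest array of 5 dpp. *Copg2*, the neighbour of *Mest* that encodes a coat protein of transport vesicles, had a log2 fold change of 0.40 (limma, adjusted p = 8.06e-08), below the fold threshold, and its 7 dpp arrays lay above those of 5 dpp in 4 of 5 strains.

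*Slc38a4*, at chr15:96994816-97055956, encodes a transporter of amino acids. It read 5.27, 5.46 and 4.83 in B6 testes at 5 dpp and 3.87, 4.01 and 3.66 at 7 dpp, and its log2 fold change over strains was -0.70 (standard error 0.09, limma, adjusted p = 6.13e-08). *Cdkn1c*, at chr7:143458339-143461059, encodes an inhibitor of the cell cycle and also had a log2 fold change of -0.70 (standard error 0.08, limma, adjusted p = 4.33e-08). Its arrays ran from 5.85 to 6.49 at 5 dpp and from 4.72 to 5.78 at 7 dpp, with no overlap. *Grb10*, at chr11:11930499-12037428, encodes an adaptor that restrains insulin and IGF receptors, and its arrays ran from 7.79 to 8.38 at 5 dpp and from 7.17 to 7.76 at 7 dpp, with no overlap. Its log2 fold change was -0.60 (standard error 0.05, limma, adjusted p = 1.32e-11), close to the threshold, and its other probe set, at -0.32, was not called. *Grb10* and *Slc38a4* were no longer called when the probe sets of a gene were averaged, at log2 fold changes of -0.36 and -0.44, and *Grb10* also without F1 5 dpp replicate 3. Such an average takes in every probe set of a gene, also those below the filter that the main test left out. The part of these weak probe sets in the smaller values was not tested.

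**Figure D1:**
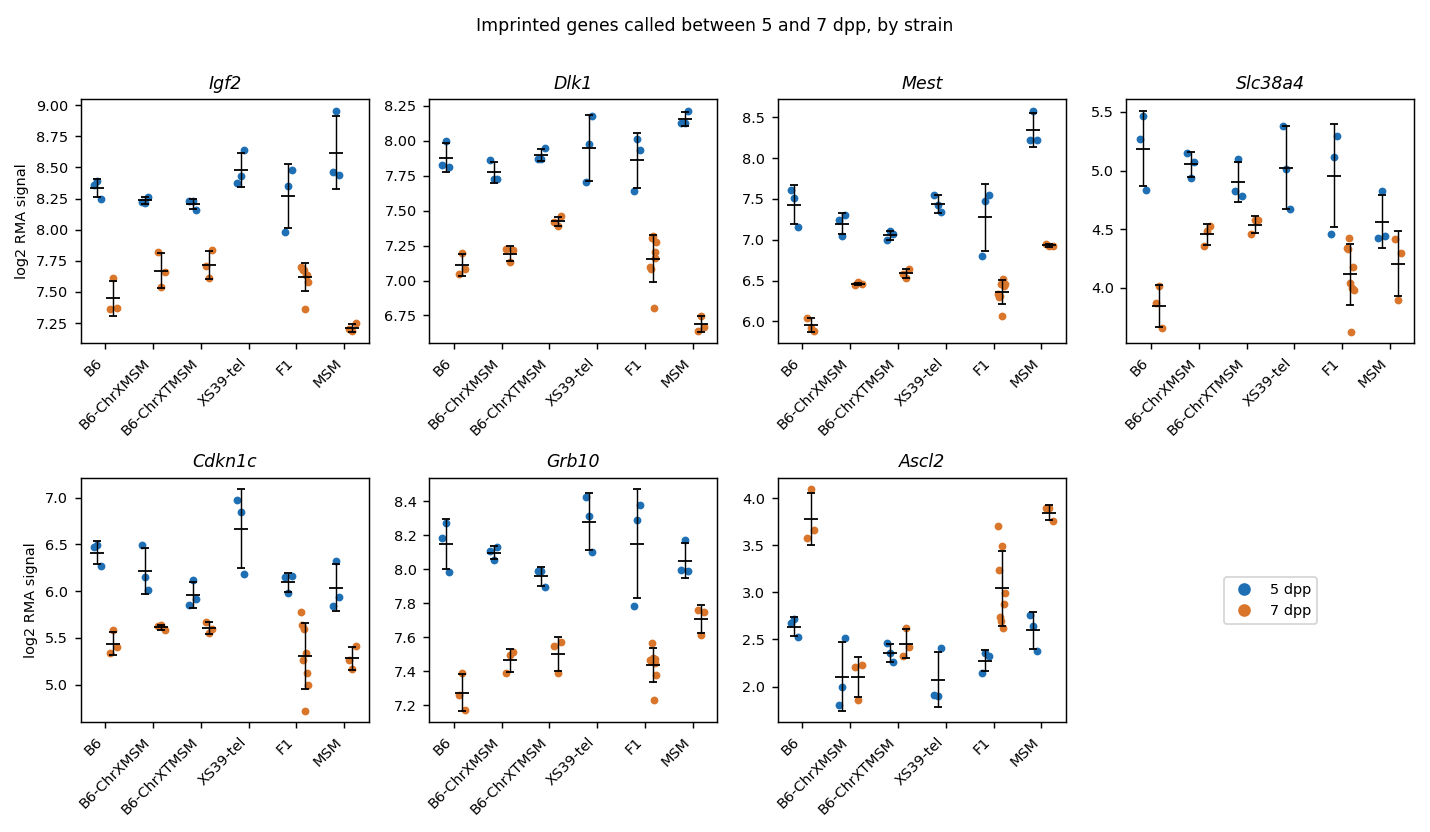
Log2 signal (y axis, 1 panel per gene with its own range) of the 7 imprinted genes called between the ages, by strain (x axis), where a point is 1 male, blue at 5 dpp and orange at 7 dpp, and black bars are the mean ± SD. *Igf2*, *Dlk1*, *Mest*, *Slc38a4*, *Cdkn1c* and *Grb10* were lower at 7 dpp in every strain measured at both ages, and the 7 dpp arrays of *Ascl2* lay above those of 5 dpp in B6, F1 and MSM.

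The cluster of *Dlk1* and *Meg3* on chromosome 12 holds non-coding RNAs of the maternal copy beside *Dlk1* of the paternal copy. All 16 probe sets of *Dlk1*, *Meg3*, *Rian* and *Mirg* that were tested had lower means at 7 dpp, from -0.80 to -0.30, and 8 of them were called. *Meg3*, at chr12:109540996-109571729, had a log2 fold change of -0.55 (limma, adjusted p = 6.12e-11) by its strongest probe set and was called lower by 4 of its 8 tested probe sets, the lowest at -0.73. *Rian*, a host of small nucleolar RNAs, was called lower by 2 of 4 probe sets, whereas its strongest, at -0.33, did not pass (limma, adjusted p = 0.0635). In F1 males of 7 dpp this strongest probe set ran from 5.03 to 7.18, and in the 3 XS39-tel males it read 6.07, 6.60 and 7.39. *Mirg*, a microRNA host gene, had a log2 fold change of -0.43 (limma, adjusted p = 8.21e-06).

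Other members stayed under the fold threshold, most of them with lower means at 7 dpp and some with higher. *Plagl1*, a zinc finger gene of growth control, had a log2 fold change of -0.48 by its strongest probe set (limma, adjusted p = 1.67e-08), and another of its probe sets was called lower at -0.73. *Peg3*, a zinc finger gene at chr7:6703892-6730462, had a log2 fold change of -0.47 (limma, adjusted p = 3.9e-11), and its 7 dpp arrays lay below those of 5 dpp in each of the 5 strains. *Igf2r*, whose receptor clears IGF2 from the cell surface, had -0.25 and *Gnas* -0.28, while the necdin gene *Ndn* had -0.23 and the sarcoglycan gene *Sgce* -0.19. *Ube3a*, a ubiquitin ligase gene, *Mkrn3* and *Zdbf2* had differences between -0.09 and 0.11 and did not pass at an adjusted p under 0.05. All 4 tested probe sets of *Ube3a* and all 4 of *Ppp1r9a* had higher means at 7 dpp, up to 0.35 and 0.37, and none of them was called.

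By the parental copy known to be used, 4 of 14 paternally expressed genes were called lower and none higher, with a median log2 fold change of -0.282. Of 10 maternally expressed genes 1 was lower and 1 higher, with a median of -0.0657. Among all probe sets tested, 1.56% were lower and 1.76% higher. These counts rest on the strongest probe sets. By other probe sets, maternally expressed *Meg3* and *Rian* were called lower by 4 of 8 and 2 of 4, and paternally expressed *Plagl1* by 1 of 3. These arrays do not tell the 2 parental copies apart. *Grb10* and *Gnas*, classed here as genes whose used copy depends on the tissue, made up the remaining pair. The classes come from prior knowledge, and the copy used in these testes was not measured for any gene.

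*Ascl2*, a transcription factor gene of placenta and stem cells at chr7:142966822-142969264, went the other way. B6 arrays read 2.68, 2.71 and 2.52 at 5 dpp and 3.57, 4.09 and 3.66 at 7 dpp, and MSM arrays 2.76, 2.65 and 2.38 against 3.89, 3.90 and 3.75. In B6-ChrXTMSM testes it read 2.46, 2.36 and 2.26 and then 2.32, 2.63 and 2.42, so the ages overlapped. The log2 fold change over strains was 0.65 (standard error 0.09, limma, adjusted p = 5.58e-07), and with MSM arrays left out it was 0.50 and not called. It was above the filter in B6 and MSM testes of 7 dpp only, so its level elsewhere is near background. The mean log2 signal of 20 germ cell markers ran from 4.72 to 4.82 in B6 testes at 5 dpp and from 5.87 to 5.95 at 7 dpp, and in B6-ChrXTMSM testes from 4.31 to 4.66 and from 4.30 to 4.95. In B6-ChrXMSM testes it went from 3.18 to 3.92 at 5 dpp to between 4.23 and 4.62 at 7 dpp, with 11 of 16 markers called higher, while *Ascl2* read 1.80, 2.00 and 2.51 and then 2.21, 1.86 and 2.23. The marker means of B6-ChrXMSM testes at 7 dpp stayed below those of B6 testes at 5 dpp. All of these B6-ChrXMSM *Ascl2* values lay below the filter, and the part of germ cells in the rise of *Ascl2* was not tested.

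Marker lists of other cells and genes of the same pathways moved between the ages as well. Of 19 germ cell markers tested, 14 rose, with a median log2 fold change of 0.896. Of 10 interstitial fibroblast and matrix genes 4 fell and none rose, with a median of -0.455, among them *Postn*, the periostin gene, at -1.10 (limma, adjusted p = 1.9e-07) and the collagen gene *Col1a1* at -0.83. The mean signal of these 10 genes ran from 8.96 to 9.24 in B6 testes at 5 dpp and from 8.11 to 8.51 at 7 dpp. The part of this shift in the falls of *Igf2*, *Dlk1* and *Mest* was not tested. Of 12 IGF signalling partners 3 fell, the IGF binding protein genes *Igfbp5* at -1.32, *Igfbp3* at -0.85 and *Igfbp4* at -0.84 (limma, adjusted p = 1.1e-11, 4.4e-09 and 1.9e-14). Of 10 genes that set or keep imprints 1 rose, the DNA methyltransferase gene *Dnmt3b* at 0.63, around a median of 0.0526. A list of further imprinted genes had 1 of 18 lower, *Ampd3* at -0.79, and 1 higher, *Qpct* at 0.68, with a median of -0.0158. Sertoli cell markers had 2 lower and 2 higher of 20, with a median of -0.0199, and of 10 Leydig cell genes 1 fell, with a median of -0.16. In single strains further lists had called genes. In B6 testes 3 of 10 Leydig cell, 3 of 5 adipose, 2 of 6 vascular and 3 of 3 epididymal genes were lower, the last with a median of -1.68, and 1 adipose gene was higher. Of 10 Leydig cell genes 2 were lower and 1 higher in MSM testes, and 2 were lower and none higher in both F1 and B6-ChrXMSM testes. Of 19 Sertoli cell genes 4 were lower and 2 higher in B6, 4 lower and 3 higher in MSM, and 3 lower and 2 higher in F1 testes. In both B6-ChrXMSM and B6-ChrXTMSM testes 1 Sertoli cell gene was higher and none lower. In MSM testes 2 of 7 vascular genes and 1 of 9 myoid genes were lower. In F1 testes 1 of 9 myoid genes was lower and 1 of 3 adipose genes higher, and in B6-ChrXMSM testes 1 of 6 macrophage genes was higher. The part of these genes in the members' falls was not tested.

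Strain by strain, the counts differed. In B6 testes 11 of 22 member genes tested fell and 1 rose, where 4.18% of all probe sets were called lower and 4.16% higher. In MSM testes 6 of 25 fell and 1 rose (7.07% lower and 7.61% higher among all), and in F1 testes 7 of 24 fell and none rose (2.61% lower and 2.96% higher among all), a count that was 4 without F1 5 dpp replicate 3. In B6-ChrXMSM testes 5 of 24 fell and none rose (1.15% lower and 1.33% higher among all), a count that was 3 without B6-ChrXMSM 5 dpp replicate 1. Of the 21 genes kept in every group, 4 fell there. In B6-ChrXTMSM testes none of 23 was called by limma, where 0.567% of all probe sets were lower and 0.272% higher, and 15 had an unadjusted p under 0.05. Of those 23, 17 had lower means at 7 dpp and the median was -0.208.

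*Mest* was called lower in each strain except B6-ChrXTMSM, from a log2 fold change of -1.48 in B6 (limma, adjusted p = 9.2e-05) to -0.74 in B6-ChrXMSM. *Igf2* and *Dlk1* were called in B6, F1 and MSM, with log2 fold changes of -1.41 and -1.47 in MSM. In F1 neither was called with probe sets averaged, at -0.52 and -0.55, and *Igf2* was not called with the replicate number as a block (-0.58) or without F1 5 dpp replicate 3. *Rian*, *Mirg* and *Peg3* were called lower in B6 testes, at -0.99, -0.90 and -0.74, and *Magel2*, a gene of the MAGE family near the filter, in B6-ChrXMSM testes. *Magel2* was kept there only through its 5 dpp mean of 3.81, so its call was partly fixed by the filter. No size is given against its 7 dpp mean, which lay below the filter. With probe sets averaged, *Peg3* and *Mirg* were not called, at -0.44 and -0.57. *Magel2* was not called with array medians subtracted or without B6-ChrXMSM 5 dpp replicate 3 or 7 dpp replicate 1. *Igf2* and *Dlk1* had log2 fold changes of -0.49 and -0.47 in B6-ChrXTMSM testes (limma, adjusted p = 0.00929 and 0.00449), under the fold threshold.

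**Figure D2:**
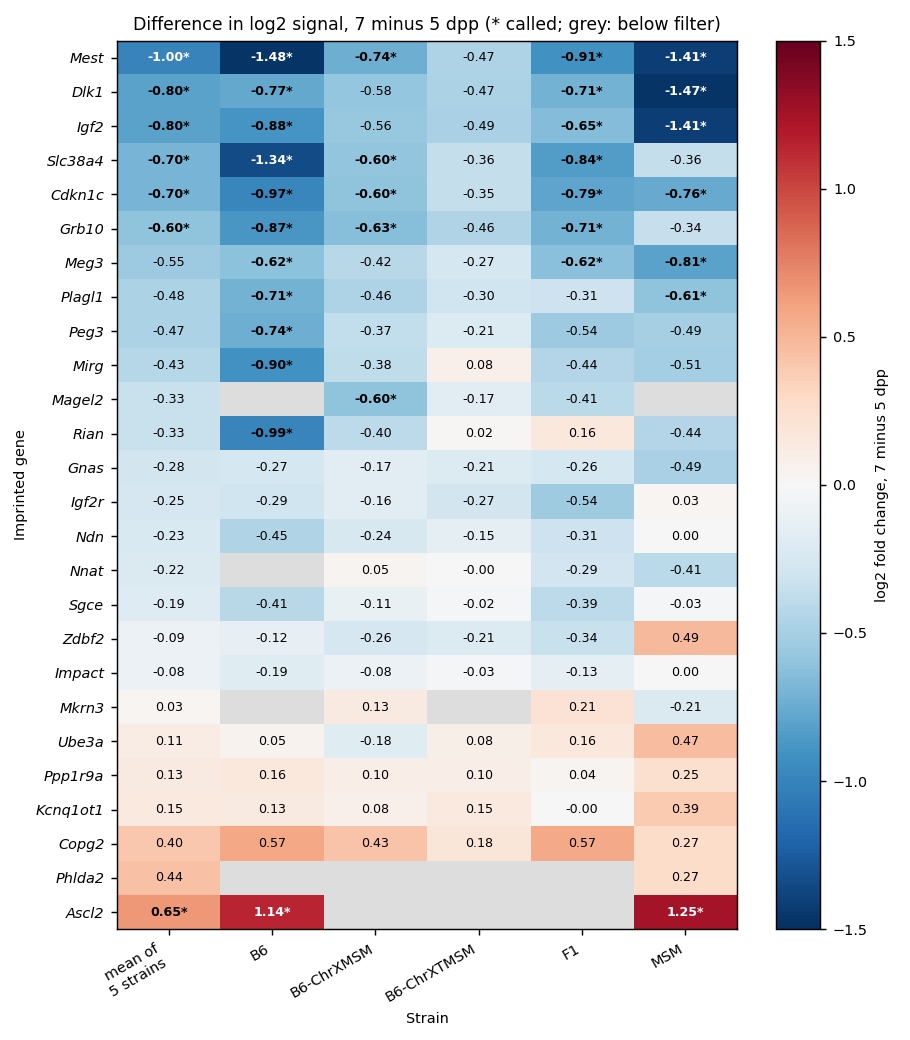
Log2 fold change between 7 and 5 dpp (colour and number in each cell) for the 26 imprinted genes that passed the filter (rows), over the 5 strains together and in each strain (columns), with called genes in bold with a star and grey where both groups lay below the filter. *Mest* was called in 4 of the 5 strains, and B6-ChrXTMSM testes held no call.

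The change with age was set against that of B6 in a test of strain by age for each other strain. For B6-ChrXTMSM, 5 of 24 member genes had a more positive and 1 a more negative change than in B6, where 2.15% of all probe sets were called more positive and 3.04% more negative. The 5 were *Mest*, *Rian*, *Mirg*, *Slc38a4* and *Cdkn1c*, and the 1 was *Ascl2*, kept through B6 testes of 7 dpp alone. *Mest* differed in its change by 1.01 (standard error 0.14, limma, adjusted p = 0.00129), *Rian* by 1.01 (standard error 0.13, limma, adjusted p = 0.000822), *Mirg* by 0.98 and *Slc38a4* by 0.98. In 1 fit over all 38 arrays *Rian* and *Cdkn1c* were not called (limma, adjusted p = 0.226 and 0.176), at the same differences of 1.01 and 0.62. *Cdkn1c* was also not called without any 1 of B6 5 dpp replicate 2, B6 7 dpp replicate 1 or B6-ChrXTMSM 5 dpp replicate 1, and *Mirg* not with its probe sets averaged, at 0.53. *Rian* read 6.45, 6.46 and 6.44 in B6-ChrXTMSM testes at 5 dpp and 6.46, 6.38 and 6.57 at 7 dpp, against 7.26, 6.93 and 6.87 and then 6.04, 5.96 and 6.09 in B6 testes. The B6 arrays thus started above those of B6-ChrXTMSM and ended below them. For B6-ChrXMSM 3 genes were called, *Mest* and *Rian* more positive and *Ascl2* more negative (0.71% and 0.693% of all probe sets). None of the 3 was called without any 1 of B6 5 dpp replicates 1 or 2, B6-ChrXMSM 5 dpp replicate 2 or B6 7 dpp replicate 3. For F1 none of 25 was called, by limma, with 1 unadjusted p under 0.05 (0.0117% more positive and 0% more negative among all probe sets).

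**Figure D3:**
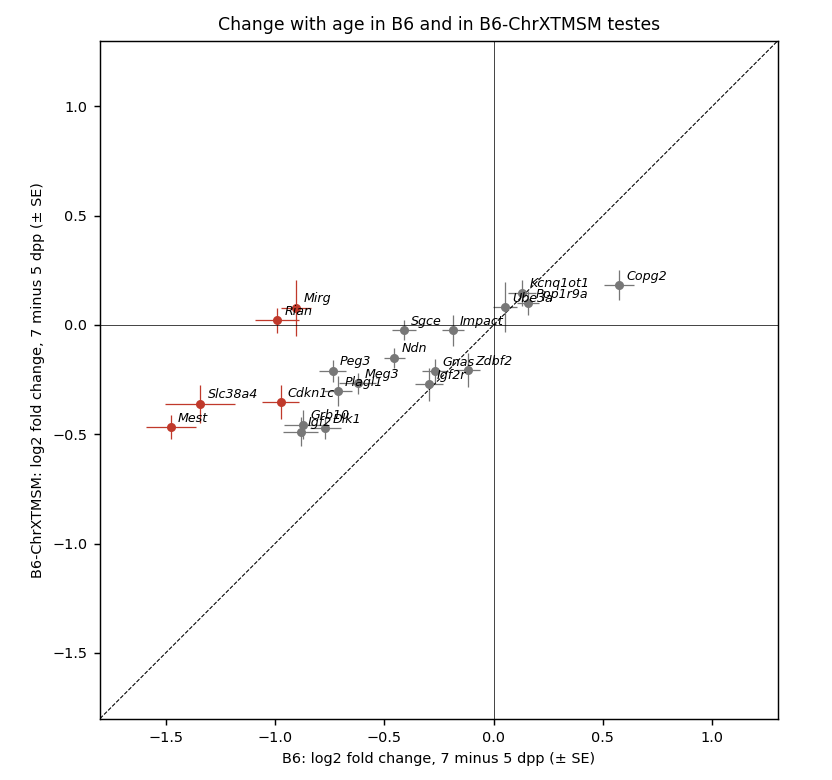
Log2 fold change between 7 and 5 dpp in B6 testes (x axis) and in B6-ChrXTMSM testes (y axis) of the imprinted genes tested in both, with bars of 1 standard error, a dashed line of equal change and red points for genes whose change differed between the strains. *Mest*, *Slc38a4*, *Cdkn1c*, *Rian* and *Mirg* lie far to the left of the dashed line.

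At 7 dpp itself, 3 of 23 member genes were higher in B6-ChrXTMSM than in B6 testes and 1 was lower (1.23% and 4.5% among all probe sets). *Mest* read 6.59, 6.53 and 6.65 against 6.05, 5.92 and 5.89, with a log2 fold change of 0.64 (limma, adjusted p = 0.00039). *Slc38a4* was higher by 0.69 and *Mirg* by 0.70. Neither was called with probe sets averaged, at 0.37 and 0.44, and *Mirg* was not called without B6-ChrXTMSM 7 dpp replicate 3. *Ascl2* was the gene called lower, but it was kept only through B6, where it is high, and B6-ChrXTMSM lay below the filter, so no size is given for this comparison. It read 3.57, 4.09 and 3.66 in B6 against 2.32, 2.63 and 2.42 in B6-ChrXTMSM testes. In B6-ChrXMSM testes *Slc38a4* was called higher, by 0.61, and *Ascl2*, kept through B6 alone, was called lower, at 2.21, 1.86 and 2.23, of 24 tested (1.47% higher and 4.61% lower among all probe sets), and *Slc38a4* was not called there with probe sets averaged (0.26) or without B6 7 dpp replicate 3 or B6-ChrXMSM 7 dpp replicate 3. Germ cell markers were lower in B6-ChrXTMSM testes for 18 of 19 genes, with a median of -1.36. Of 10 Leydig cell genes 4 were higher and none lower, with a median of 0.271, and of 19 Sertoli cell genes 3 were higher and 1 lower, with a median of 0.229. The part of these lists in the members' differences was not tested. In F1 testes of 7 dpp none of 23 was called by limma, with 9 at an unadjusted p under 0.05 (1.35% lower and 0.366% higher among all probe sets). These F1 males differed among themselves, with germ cell marker means from 4.84 to 5.99, where the B6 males of 7 dpp ran from 5.87 to 5.95.

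At 5 dpp no member gene was called by limma between B6 and B6-ChrXMSM, B6-ChrXTMSM, XS39-tel or F1 testes. Of all probe sets, 1.5%, 0.23%, 0.544% and 0.39% were lower and 0.183%, 0.0767%, 0.105% and 0.15% higher in these comparisons, and 2, 7, 3 and 2 member genes had an unadjusted p under 0.05. *Igf2* stood at a mean of 8.33 in B6, 8.24 in B6-ChrXMSM, 8.21 in B6-ChrXTMSM, 8.48 in XS39-tel and 8.27 in F1 testes.

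MSM testes were set against the mean of the B6-background strains. At 5 dpp 3 of 24 member genes were higher and 1 was lower, and at 7 dpp 4 of 25 were higher and 1 was lower. Among all probe sets 16.6% were higher and 11.6% lower at 5 dpp, and 11.1% were higher and 8.16% lower at 7 dpp. *Nnat*, *Phlda2* and *Ascl2* are among these calls and passed the filter in some groups only. Of the 21 genes kept in every group, 2 were higher and 1 lower at 5 dpp, and 1 was higher and 1 lower at 7 dpp. Probe sets with sequence differences between B6 and MSM were listed by the study for chromosomes 1 and X only, and those were left out. For the other chromosomes, a different transcript level and weaker binding of MSM transcripts to probes of B6 sequence cannot be told apart. *Zdbf2* is on chromosome 1 and its probe set is not on that list.

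*Mest* was above every B6-background array at both ages. MSM arrays read 8.22, 8.58 and 8.22 at 5 dpp, where the other 15 arrays ran from 6.81 to 7.61 around 7.30, and 6.95, 6.93 and 6.92 at 7 dpp, where 17 arrays ran from 5.89 to 6.65 around 6.45. The log2 fold change was 1.06 (standard error 0.10, limma, adjusted p = 1.27e-10) at 5 dpp and 0.59 (standard error 0.10, limma, adjusted p = 1.11e-05) at 7 dpp, the second so close to the threshold that it was not called with array medians subtracted (0.58) or without any 1 of B6 replicate 3, MSM replicate 1, B6-ChrXTMSM replicate 2 or F1 replicate 5 of 7 dpp. *Nnat*, a neuronatin gene at chr2:157560078-157562525, was also above every other array, at 4.55, 4.49 and 4.62 at 5 dpp against 3.15 to 3.66. Its log2 fold change was 1.21 at 5 dpp and 1.01 at 7 dpp (standard error 0.09 at both, limma, adjusted p = 5.15e-13 and 6.21e-11). Its 7 dpp arrays read 4.0, 4.23 and 4.21 in MSM against 2.62 to 3.47 in the others.

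*Phlda2*, which limits growth of the placenta and lies at chr7:143501545-143503145, passed the filter through MSM testes of 7 dpp alone, so its difference there was partly fixed by the filter. It was called higher there and read 3.26, 3.45 and 3.32 in those arrays against 1.19 to 2.76 in the others. Since all the other groups lay below the filter, no size is given. At 5 dpp, where it was not tested, MSM arrays read 3.29, 2.86 and 3.06 against 0.95 to 1.85. *Ascl2* was called higher in MSM at 7 dpp, but B6 arrays of that age, from 3.57 to 4.09, overlapped the MSM arrays of 3.75 to 3.90. The other B6-background strains of 7 dpp lay below the filter for *Ascl2*, so the call rests on signals near background and no size is given. Germ cell markers were higher in MSM for 15 of 17 genes at 5 dpp and 17 of 19 at 7 dpp, with medians of 1.17 and 0.809. Against B6 alone 9 of 17 were higher at 5 dpp, with a median of 0.676. At 7 dpp 3 of 19 were higher than in B6 and 1 was lower, with a median of 0.106. Against the B6-background strains at 5 dpp, other lists held called genes too. Of 7 vascular genes 5 were higher and none lower, and of 9 myoid genes 3 were higher and none lower, with medians of 0.592 and 0.364. Of 10 Leydig cell genes 2 were lower and 1 higher, and of 7 macrophage genes 2 were lower and none higher. The part of these lists in the members' calls was not tested.

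*Zdbf2*, a gene of the paternal copy at chr1:63200358-63314576, was lower in MSM at 5 dpp. Its arrays read 5.24, 4.98 and 5.07 against 5.62 to 6.14 in the B6-background strains. The difference was -0.81 on the log2 scale (standard error 0.10, limma, adjusted p = 9.5e-09). At 7 dpp MSM arrays read 5.48, 5.68 and 5.60 and overlapped the others, at -0.09 (limma, adjusted p = 0.401). F1 males, whose paternal copy of this gene came from MSM, had means of 5.76 at 5 dpp and 5.42 at 7 dpp, against 5.90 and 5.78 in B6. Their log2 fold change against B6 was -0.14 at 5 dpp (95% interval -0.33 to 0.04) and -0.36 at 7 dpp (95% interval -0.65 to -0.08), with limma adjusted p = 0.406 and 0.11. The F1 arrays of 7 dpp ran from 5.13 to 5.78.

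*Meg3* was lower in MSM at 7 dpp, at 8.76, 8.80 and 8.80 against 9.14 to 9.89, a log2 fold change of -0.89 (standard error 0.08, limma, adjusted p = 7.27e-11), which was -0.36 and not called with its probe sets averaged. At 5 dpp its log2 fold change was -0.57 (limma, adjusted p = 3.08e-07), just under the fold threshold, with MSM arrays from 9.53 to 9.65 and the others from 10.06 to 10.27. *Igf2* and *Dlk1* lay below every other array in MSM at 7 dpp, at log2 fold changes of -0.40 and -0.53 that were under the fold threshold, while at 5 dpp they stood at 0.31 and 0.29.

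**Figure D4:**
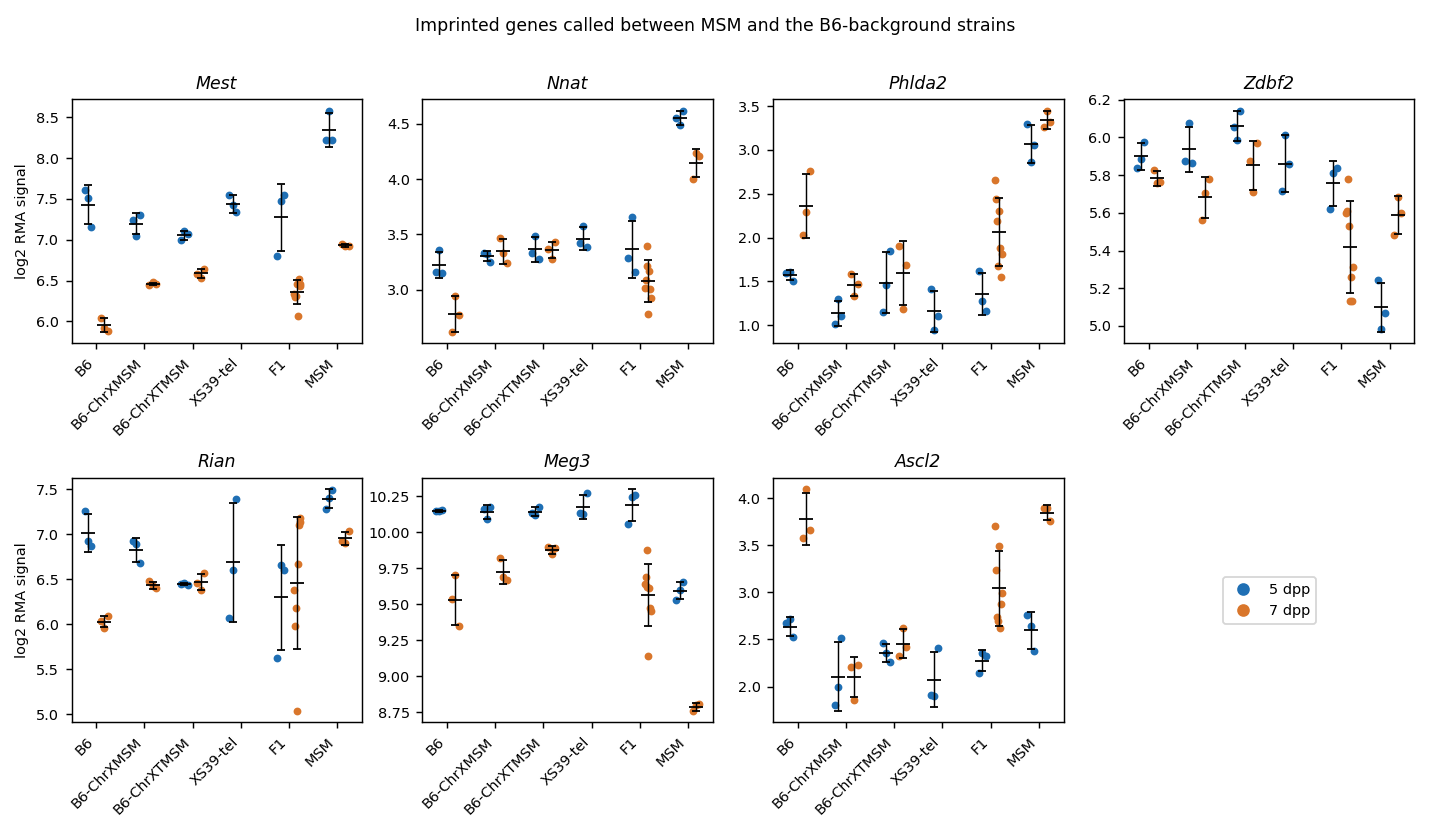
Log2 signal (y axis, 1 panel per gene with its own range) of the 7 imprinted genes called between MSM and the B6-background strains at either age, by strain (x axis), with 1 point per male, blue at 5 dpp and orange at 7 dpp, and black bars for the mean ± SD. MSM males lie above all others for *Mest*, *Nnat* and *Phlda2*, and below them for *Meg3* at both ages and for *Zdbf2* at 5 dpp.

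Against B6 alone, MSM testes had *Mest* and *Nnat* higher and *Slc38a4* and *Zdbf2* lower at 5 dpp (16.4% and 11.9% of all probe sets), and *Mest*, *Nnat*, *Phlda2* and *Rian* higher and *Meg3* lower at 7 dpp (9.4% and 7.89%). *Nnat* at both ages and *Phlda2* at 7 dpp were kept through MSM testes alone, since they lay below the filter in B6, so these calls were partly fixed by the filter. With probe sets averaged, the 7 dpp difference of *Rian* went from 0.93 to 0.10 (limma, adjusted p = 0.224) and that of *Meg3* from -0.74 to -0.24, and neither was called. Of the 4 *Rian* probe sets 1 was higher there, and the lowest stood at -0.29. *Slc38a4* was not called with probe sets averaged (-0.42) or without any 1 of B6 replicates 1 and 2 and MSM replicates 1 and 3 of 5 dpp. The change with age was then compared between MSM and B6. *Dlk1* fell more in MSM, by a difference of -0.70 (standard error 0.10, limma, adjusted p = 0.000272), and *Slc38a4* and *Zdbf2* had a more positive change, by 0.98 and 0.61 (limma, adjusted p = 0.0103 and 0.00132). These 3 of 25 genes stood beside 5.71% of all probe sets more positive and 6.37% more negative, and *Zdbf2* was not called without any 1 of B6 5 dpp replicate 3, MSM 5 dpp replicate 2 or MSM 7 dpp replicate 2. *Igf2* differed by -0.53 (limma, adjusted p = 0.0309), under the fold threshold. *Slc38a4* read 4.42, 4.83 and 4.44 in MSM testes at 5 dpp and 4.42, 3.89 and 4.30 at 7 dpp, so the lowest of the first and the highest of the second both stood at 4.42.

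Probe sets of the same gene disagreed more between MSM and the B6-background strains than between the ages. For *Rian*, the strongest probe set was called higher in MSM at 5 dpp by 0.74 (limma, adjusted p = 0.0157; 0.0652 without MSM 5 dpp replicate 3), while the other 3 were called lower, from -0.85 to -0.61. For *Plagl1*, 1 probe set was higher by 1.29, 1 had -0.73 and was called lower, and the strongest had 0.11. A weaker probe set of *Gnas* read 2.36, 1.79 and 2.21 in MSM against 2.72 to 5.16 in the others, a log2 fold change of -2.41 (standard error 0.28, limma, adjusted p = 5.34e-09), while the strongest had 0.24. *Meg3* probe sets spanned -0.80 to 0.37 and those of *Impact* -0.75 to 0.12. Between the ages, by contrast, the tested probe sets of *Meg3* ran from -0.73 to -0.52 and those of *Rian* from -0.70 to -0.33, all with 1 sign. With the probe sets of *Rian* averaged, its difference in MSM at 5 dpp turned to -0.38.

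**Figure D5:**
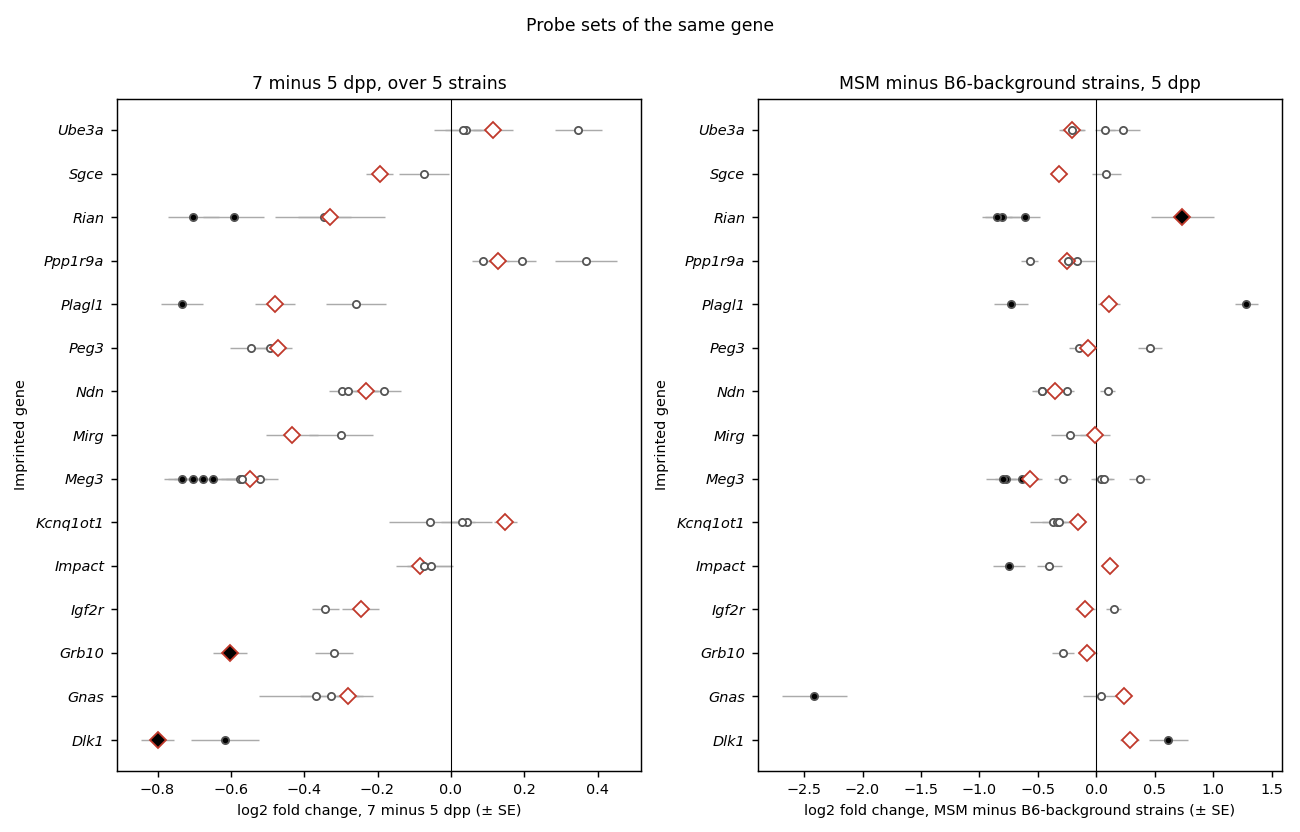
Log2 fold change (x axis, bars of 1 standard error) of each tested probe set of the imprinted genes with several probe sets (y axis), between the ages on the left and between MSM and the B6-background strains at 5 dpp on the right, where red-edged diamonds are the strongest probe set, grey circles the others, and filled symbols were called. Probe sets of *Rian*, *Plagl1* and *Gnas* lie on both sides of 0 on the right, and those of *Meg3*, *Rian*, *Plagl1* and *Gnas* on 1 side on the left.

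All arrays had medians between 2.63 and 2.71, and the mean correlation of an array with the others of its group was 0.989 to 0.997. Among the XS39-tel males it was lowest, and no pair of arrays held the same values. The 8 adipose marker genes differed widely between B6 arrays of 5 dpp, with means from 2.96 to 4.91, and their part in the values of the members was not tested.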

How the data were processed

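Total RNA of whole testes of single males was measured on Affymetrix mouse whole-genome arrays. The deposited log2 values were made by the authors with RMA in GeneSpring GX (version not given in the sources used here), which corrects background, quantile-normalizes and summarises probe sets, so they are relative to the other arrays and differences are compressed for weak signals. No value was normalized again. Of 45101 probe sets, 34958 had 1 gene, 932 several and 9211 none, and probe sets with several or none were not used. Polymorphic probe sets listed by the study were left out, 258 on the X chromosome always and 728 on chromosome 1 where MSM or F1 was set against another strain. Groups came from the labels, which call the arrays biological replicates.

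Pairs of groups, and contrasts over all 38 arrays with 1 mean per group, were fitted in R 4.3.3 by lmFit, then eBayes (limma 3.58.1), keeping only probe sets whose mean passed a signal of 10 in a compared group. Adjusted p-values (two-sided) run over all probe sets tested. The number of males limits the precision. The members and the lists were chosen with earlier results of these data known, and the strain by age tests of the B6-background strains were added after the values were seen. Members called over strains or between MSM and the B6-background strains are named in full, at most 12 per comparison, and from other lists 2 to 4 called genes of largest fold.
The remaining lists were adipose tissue, macrophage, vascular endothelium, peritubular myoid and smooth muscle, skeletal muscle, epididymis and efferent duct, erythroid cell and cell proliferation, of which none had a called gene between the ages over strains. Skeletal muscle and erythroid cell had no gene above the filter there.
Coordinates and promoters are those of RefSeq on GRCm38.p6. Alternatives are other scaling, filters, variance models, averaging of probe sets, other sets of arrays and leaving out each array.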

Additional observations from a re-analysis of the deposited data

Results flagged for a closer look

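A pair of members stood apart in 1 F1 male of 7 dpp, replicate 5. Its *Igf2* signal of 7.36 was the lowest of the 8 males, with the next at 7.58, a gap of 0.653 of the whole range. Its *Dlk1* signal of 6.81 was lowest too, with the next at 7.08, a gap of 0.541 of the range. The same male had the lowest mean of the interstitial fibroblast and matrix genes, 8.01 where the other 7 males ran from 8.34 to 8.63, and of the IGF signalling partners, 6.15 where the next was 6.36. It had the highest mean of the germ cell markers, 5.99, where the other 7 males ran widely, from 4.84 to 5.90. The part of these lists in its *Igf2* and *Dlk1* values was not tested. These are 2 of 26 genes looked at in this way, and chance alone sets about 1 in 20 groups apart to this degree.

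Changes with age also differed between some strains and B6, each by the strain by age test. Values in brackets are the change in that strain minus the change in B6, on the log2 scale. In MSM testes these were *Slc38a4* (0.98), *Dlk1* (-0.70) and *Zdbf2* (0.61). In B6-ChrXTMSM testes they were *Mest* (1.01), *Rian* (1.01), *Mirg* (0.98), *Slc38a4* (0.98), *Cdkn1c* (0.62) and *Ascl2* (-1.04). In B6-ChrXMSM testes they were *Mest* (0.74), *Rian* (0.59) and *Ascl2* (-1.14). *Ascl2* entered both of these comparisons through B6 testes of 7 dpp alone, so its values there rest on signals below the filter.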

How the results depend on the processing

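Numbers of called member genes are given here, the reported value first. Averages over the probe sets of a gene took in those below the filter as well. With the probe sets of each gene averaged, the count between the ages went from 7 to 4 over strains, from 12 to 7 in B6 and from 7 to 3 in F1 testes. It went from 4 to 1 for B6-ChrXTMSM and from 2 to 0 for B6-ChrXMSM against B6 at 7 dpp, from 5 to 3 for MSM against the B6-background strains at 7 dpp, and from 3 to 1 for B6-ChrXMSM by age. *Rian* reversed to -0.38 in MSM against the B6-background strains at 5 dpp. With a signal filter of 50 the counts were 3 in B6-ChrXMSM between the ages, 2 and 3 for MSM against B6 at 5 and 7 dpp, 0 for B6-ChrXMSM and 1 for B6-ChrXTMSM against B6 at 7 dpp, 3 for MSM against the B6-background strains at 7 dpp and 3 for B6-ChrXTMSM by age, with fewer genes tested. With array medians subtracted, B6-ChrXMSM had 2 between the ages. With 1 fit over all arrays it had 3, F1 against B6 at 7 dpp had 1 and B6-ChrXMSM by age had 0, as it had without an expression filter. Apart from the genes that the stricter filter removed, the cause was not tested.

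Replicate numbers did not pair the males, since no comparison had all same-numbered deviations correlated above 0.1. With the replicate number as a block, the count in F1 between the ages was 4 in place of 7, and the count over strains was 7 as before. Leaving out 1 array at a time gave 11 to 13 for B6 7 dpp against 5 dpp, 3 to 6 for B6-ChrXMSM 7 dpp against 5 dpp, 4 to 10 for F1 7 dpp against 5 dpp, 3 to 5 for MSM against B6 5 dpp, 0 to 1 for B6-ChrXMSM against B6 5 dpp, 4 to 5 for MSM against B6 7 dpp, 1 to 3 for B6-ChrXMSM against B6 7 dpp, 3 to 5 for B6-ChrXTMSM against B6 7 dpp, 0 to 1 for F1 against B6 7 dpp, 6 to 7 for the ages over strains, 4 to 6 for MSM against B6-background strains 5 dpp, 4 to 6 for MSM against B6-background strains 7 dpp, 2 to 5 for MSM by age, 0 to 3 for B6-ChrXMSM by age and 5 to 6 for B6-ChrXTMSM by age. The lowest values came without F1 5 dpp replicate 3 in F1 between the ages, without B6-ChrXMSM 5 dpp replicate 1 in B6-ChrXMSM between the ages and without B6 7 dpp replicate 3 for B6-ChrXMSM against B6 at 7 dpp. The count was 1 in place of 0 without B6 5 dpp replicate 1 for B6-ChrXMSM against B6 at 5 dpp and without F1 7 dpp replicate 1 or 5 for F1 against B6 at 7 dpp, and 5 in place of 3 without MSM 5 dpp replicate 3 for MSM by age. The comparisons not listed kept their counts.
Of 74 calls of member genes, 40 were kept under each alternative and without each array for which the gene was still tested. A setting in which the filter removed the gene was not counted. *Ascl2* in B6 testes between the ages thus rests on 5 alternatives, where *Cdkn1c* rests on 7. Of 492 values under alternatives, which leave out such cases, 449 were still called. Signals near the filter limit *Ascl2*, *Phlda2*, *Nnat*, *Magel2* and *Mkrn3*.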
